A study of Mus musculus with 30 samples.

Results

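The genes described here are 8 genes of cholesterol synthesis, Hmgcs1, Sqle, Idi1, Fdft1, Lss, Cyp51, Insig1 and Dhcr7, taken by name from a table of 22477 genes. Cholesterol is built from acetyl-CoA by way of mevalonate, isoprenoid diphosphates, squalene and lanosterol. When sterol in the endoplasmic reticulum runs low, the SCAP protein carries SREBP2, encoded by Srebf2, to the Golgi, where it is cut and released to switch on these genes, and INSIG proteins hold SCAP back when sterol is plentiful. Proliferating cells draw on this pathway, on uptake of lipoproteins from serum, or on both.

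RNA was measured by polyadenylated RNA-seq in mouse secondary induced pluripotent stem cells (iPSCs) that carry doxycycline (dox)-inducible Oct4, Sox2, Klf4 and Myc (OSKM), GFP targeted to Nanog and a constitutive nuclear RFP. All groups share these alleles. The cells were kept on CF1 mouse embryonic fibroblasts (MEFs) in serum and LIF, moved to serum-free N2B27 medium with 2i/LIF, which holds them in the naive state, and then deprived of 2i/LIF for 0, 24, 36, 48, 60, 72 or 96 h. Cells taken at 0, 24, 48 or 96 h were re-seeded in serum with LIF for 48 h, either without dox (–dox) or with dox (+dox) to turn on OSKM. These 15 conditions had 2 replicates each, 30 samples in all, but the table holds 1 combined FPKM value (fragments counted, scaled by transcript length and library size) per gene and condition. No difference below therefore has a replicate error or a test, and a ratio is a description of these libraries. A gene was counted as called where the FPKM ratio of 2 conditions reached 2-fold and the higher value was at least 1 FPKM.

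All 8 genes were well above that minimum in every condition, the lowest value being 2.35 FPKM for Lss in +dox cells from 96 h. Nanog, a marker of pluripotent cells, dropped from 227 FPKM before withdrawal to 6.45 FPKM after 48 h. It was then at 38.9 FPKM after 72 h and 14.5 FPKM after 96 h. Pou5f1 went from 199 FPKM to 279 FPKM after 24 h and 25.5 FPKM after 96 h. Read depth was not given, and the spacing of low FPKM values gave a rough guide to it. For a 2 kb transcript, 1 FPKM came to 85.5 to 98.4 such steps in the 4 conditions re-seeded from 0 and 24 h and to 28.6 to 38.6 steps in the other 11, so the former stood apart, and the part of depth in ratios against them was not tested. Markers of fibroblasts were also read at 0 h, and whether this RNA came from carried-over MEFs was not tested. The summed level of 20 fibroblast markers was 982 FPKM before withdrawal, between 35.1 and 98.6 FPKM at the 6 later timepoints, between 24.7 and 51.2 FPKM in cells re-seeded from 0, 24 or 48 h, and 204 and 58.9 FPKM in –dox and +dox cells from 96 h. Of the 20 markers, 1 to 3 were listed at 0 in every condition but 0 h, 24 h and –dox cells from 96 h, with Fap among them each time. The part of fibroblast RNA in any ratio against 0 h was not tested, and in such bulk samples a change in cell numbers and a change in RNA per cell cannot be told apart.

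The promoters of 3 of the genes are printed to show the letters through which SREBP2 and its partner NF-Y are known to act. Each window runs from 250 bases before to 50 after a RefSeq start site (GRCm38.p6, the build also called mm10), all on the + strand. Capitals mark CACNCCAC, a core of the sterol regulatory element, and CCAAT, the NF-Y box, on either strand. Hmgcs1 lies at chr13:119690101-119690400, Idi1 at chr13:8885356-8885655 and Insig1 at chr5:28071162-28071461.
Hmgcs1: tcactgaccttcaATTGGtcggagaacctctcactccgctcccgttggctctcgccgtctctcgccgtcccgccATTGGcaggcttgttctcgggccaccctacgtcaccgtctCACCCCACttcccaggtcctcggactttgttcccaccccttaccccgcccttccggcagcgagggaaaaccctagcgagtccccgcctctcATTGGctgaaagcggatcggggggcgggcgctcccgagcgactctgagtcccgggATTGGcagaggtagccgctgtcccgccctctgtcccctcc
Idi1: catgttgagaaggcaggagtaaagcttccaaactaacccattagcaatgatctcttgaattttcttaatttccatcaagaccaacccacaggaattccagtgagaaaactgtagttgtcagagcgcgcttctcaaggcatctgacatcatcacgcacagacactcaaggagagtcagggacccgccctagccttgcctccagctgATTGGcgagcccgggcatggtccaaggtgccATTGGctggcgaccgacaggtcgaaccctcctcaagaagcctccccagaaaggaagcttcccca
Insig1: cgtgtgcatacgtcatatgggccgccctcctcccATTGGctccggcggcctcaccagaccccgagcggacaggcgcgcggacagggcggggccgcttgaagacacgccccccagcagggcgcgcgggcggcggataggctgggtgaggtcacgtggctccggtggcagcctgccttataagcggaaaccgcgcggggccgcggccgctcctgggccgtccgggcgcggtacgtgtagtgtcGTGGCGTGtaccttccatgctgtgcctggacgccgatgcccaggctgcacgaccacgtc

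Of the 8 genes, 6 had a promoter window, and Sqle and Fdft1 had no entry. A gene counted as holding a motif if any of its windows did, while the percentages are of single windows. Dhcr7 had several windows, and not all of them held CCAAT. CACNCCAC was found in Hmgcs1 and Insig1, and in 1 of 11 other enzymes of the pathway (Acat2), against 6.24% of 32851 promoter windows. The longer TCACCCCAC, which contains it, was found in Hmgcs1 alone of the 6 and in 0 of the 11, against 0.551%. CCAAT was found in 6 of 6 genes and 10 of 11 other enzymes of the pathway that had a window, against 37.4% of all windows. GGGCGG, the GC box of SP1, was likewise found in 6 of 6 and 10 of 11, against 35.7%. These are matches of letters, and Idi1, which holds no CACNCCAC in this window, is shown beside the others for that reason.

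During withdrawal all 8 genes had their highest level at 24, 36 or 48 h, where 36.4% of all genes had theirs. Their median log2 ratio to 0 h over the 24, 48 and 96 h timepoints was 0.82, 0.73 and -0.29. The median over all genes tested was -0.01, -0.02 and -0.02 in the same comparisons. Added together, the 8 levels came to 381 FPKM before withdrawal, 667 FPKM by 36 h and 289.9 FPKM by 96 h.

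**Figure D1:**
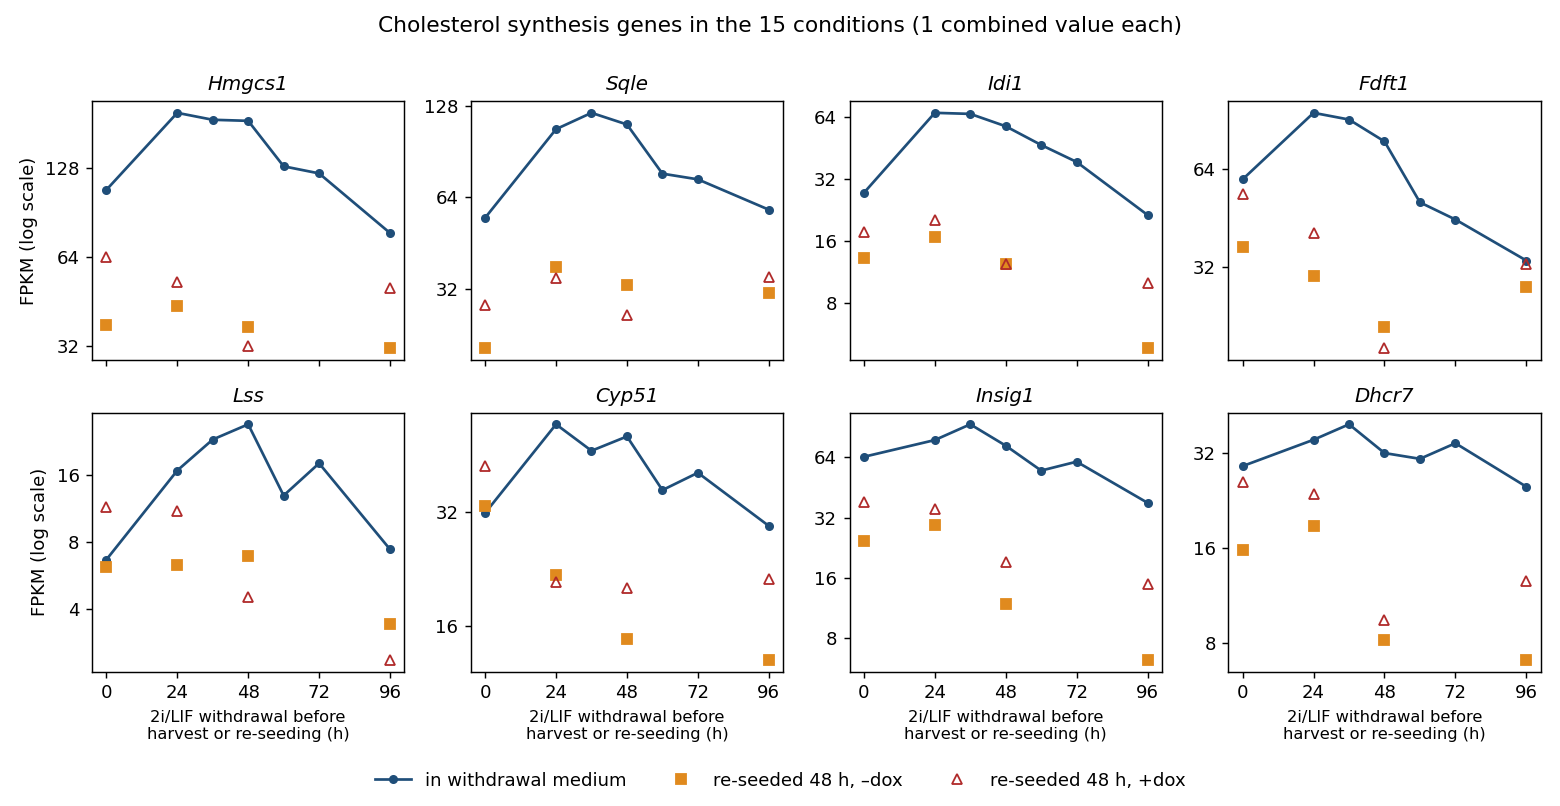
FPKM (log scale, 1 combined value per condition, no error bars) of the 8 genes against hours of 2i/LIF withdrawal, with the 7 withdrawal timepoints as a blue line and the –dox (orange squares) and +dox (red triangles) cells plotted at the hour they were re-seeded. Each blue line is highest at 24, 36 or 48 h, and for Hmgcs1, Sqle and Idi1 all 8 re-seeded values lie below the whole line.

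Hmgcs1 encodes the cytosolic HMG-CoA synthase at the head of the mevalonate branch. Over 0, 24, 36, 48, 60, 72 and 96 h its levels were 108, 196, 186, 184, 129, 122 and 76.9 FPKM. The level was thus 1.82-fold higher at 24 h than at 0 h, stayed between 184 and 196 FPKM until 48 h and was 2.55-fold lower at 96 h than at 24 h. Idi1, whose product interconverts the isoprenoid diphosphates, had the same order of levels with a steeper first step. It was at 27.4, 67.2, 66.4, 57.8, 46.9, 38.8 and 21.4 FPKM at the 7 timepoints, 2.45-fold higher at 24 h than at 0 h and 3.14-fold lower at 96 h than at 24 h.

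Fdft1 and Sqle encode squalene synthase and squalene epoxidase, the first enzymes committed to sterols. Fdft1 was at 59.6, 95.6, 91.1, 78.0, 50.6, 44.8 and 33.5 FPKM at the 7 timepoints, so that its values from 60 h on were already below 0 h. Sqle was at 54.8, 107, 121, 111, 76.6, 73.4 and 58.3 FPKM, and its lowest value was the one at 0 h.

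Lss encodes lanosterol synthase, which closes the sterol rings. Its levels were 6.64, 16.7, 23.1, 27.0, 12.9, 18.0 and 7.39 FPKM, the widest range of the 8 genes in withdrawal at 4.07-fold, and the peak at 48 h was the latest. Lss was the 1 gene of the 8 called lower at 60 h than at 48 h (background 4.26% of genes), a call that was lost when conditions were scaled to the same summed FPKM, and the 1 called lower at 96 h than at 72 h (5.01%). Cyp51, the lanosterol demethylase, was at 31.8, 54.7, 46.5, 50.8, 36.6, 40.7 and 29.4 FPKM. Dhcr7, a reductase that completes cholesterol, was at 29.1, 35.3, 39.5, 32.0, 30.7, 34.4 and 25.04 FPKM, the narrowest range at 1.58-fold.

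Insig1, the only one of the 8 whose product is not an enzyme, encodes the retention protein of SCAP and is itself a target of SREBP2. It was at 64.4, 78.0, 93.5, 73.2, 54.9, 60.8 and 37.9 FPKM. Its 96 h value was below all its other withdrawal values, as for Hmgcs1, Idi1, Fdft1, Cyp51 and Dhcr7.

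By the call rule, 2 of 8 genes were higher at 24 h than at 0 h (Idi1 and Lss; 8.64% of all genes tested), 3 at 36 h (with Sqle; 11.3%) and the same 3 at 48 h (12.1%). None of 8 was called in either direction at 96 h against 0 h (33.3%). Against 24 h, 5 of 8 were called lower at 96 h (Hmgcs1, Idi1, Fdft1, Lss and Insig1; 16.3%).

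Reads of some of the genes could be shared with neighbours, since counting by strand was not stated. In mm10, Fdft1 (chr14:63145150-63179578, – strand) overlaps Ctsb, Cyp51 (chr5:4081145-4104746, – strand) overlaps Akap9, and Lss (chr10:76531588-76557138, + strand) overlaps the antisense gene 4930483K19Rik, each on the other strand. Ctsb ranged from 16.2 to 92.6 FPKM, Akap9 from 5.78 to 18.3 FPKM and 4930483K19Rik from 0.047 to 1.79 FPKM over the 15 conditions. Ctsb and Akap9 were not highest at 24 to 48 h, while 4930483K19Rik had its highest level at 36 h. Hmgcs1 and Idi1 also overlap genes on the other strand, Gm48342 and Gm48574, for which no level was given. Idi2, a close paralog of Idi1, stayed at or below 0.0677 FPKM.

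Cells re-seeded in serum/LIF without dox were then set against the timepoint at which they had been taken. These pairs differ in medium, serum, 48 h of culture, re-plating and perhaps feeders, which cannot be told apart. The number of genes called lower was 4 of 8 from 0 h (10.1% of all genes tested), 7 of 8 from 24 h (10.6%), 8 of 8 from 48 h (11.5%) and 6 of 8 from 96 h (11.2%). The median log2 ratio of the 8 genes was -0.97, -1.46, -1.97 and -1.24, where the median of all genes lay between -0.05 and 0.01.

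From 0 h, Hmgcs1 was at 37.7 FPKM in –dox cells, 2.86-fold lower than before, and Sqle (20.4 FPKM), Insig1 (24.6 FPKM) and Idi1 (13.2 FPKM) were 2.69-, 2.62- and 2.08-fold lower. Dhcr7 (15.7 FPKM) and Fdft1 (36.7 FPKM) were 1.85- and 1.62-fold lower and were not called. Lss (6.13 FPKM) and Cyp51 (33.2 FPKM) stood within 1.1-fold of their 0 h values. The first 4 genes and the last pair thus differed in this comparison, in which the fibroblast marker sum was 982 FPKM in the starting cells and 24.7 FPKM in the re-seeded cells.

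From 24 h, Hmgcs1 (43.6 FPKM) and Idi1 (16.7 FPKM) were 4.50- and 4.03-fold lower than at 24 h, and Dhcr7 (18.8 FPKM), the gene not called, was 1.88-fold lower. From 48 h the ratios ran from 3.36-fold lower for Sqle (33.1 FPKM) to 6.16-fold lower for Insig1 (11.9 FPKM). This was the start at which all 8 genes were called. The fibroblast marker sum was 59.6 FPKM at 48 h and 51.2 FPKM in the –dox cells, while single markers moved both ways. Thy1 was at 17.7 and 1.55 FPKM, and Col5a1 at 2.33 and 8.61 FPKM. The part of fibroblast RNA in these ratios was not tested.

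From 96 h, Insig1 (6.23 FPKM), Idi1 (4.80 FPKM) and Dhcr7 (7.06 FPKM) were 6.09-, 4.46- and 3.55-fold lower than at 96 h. Sqle (31.1 FPKM) was 1.88-fold lower and Fdft1 (27.7 FPKM) 1.21-fold lower, neither of them called. In these –dox cells the fibroblast marker sum was 204 FPKM, against 53.5 FPKM at 96 h, and 16 of the 20 markers reached 1 FPKM. Col1a2 was at 86.0 FPKM and Col1a1 at 33.2 FPKM, while Dcn and Lum were at 0.791 and 0.0605 FPKM. Ctsb, which overlaps Fdft1, had its highest value, 92.6 FPKM. The part of fibroblast RNA or of Ctsb reads in these ratios was not tested.

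**Figure D2:**
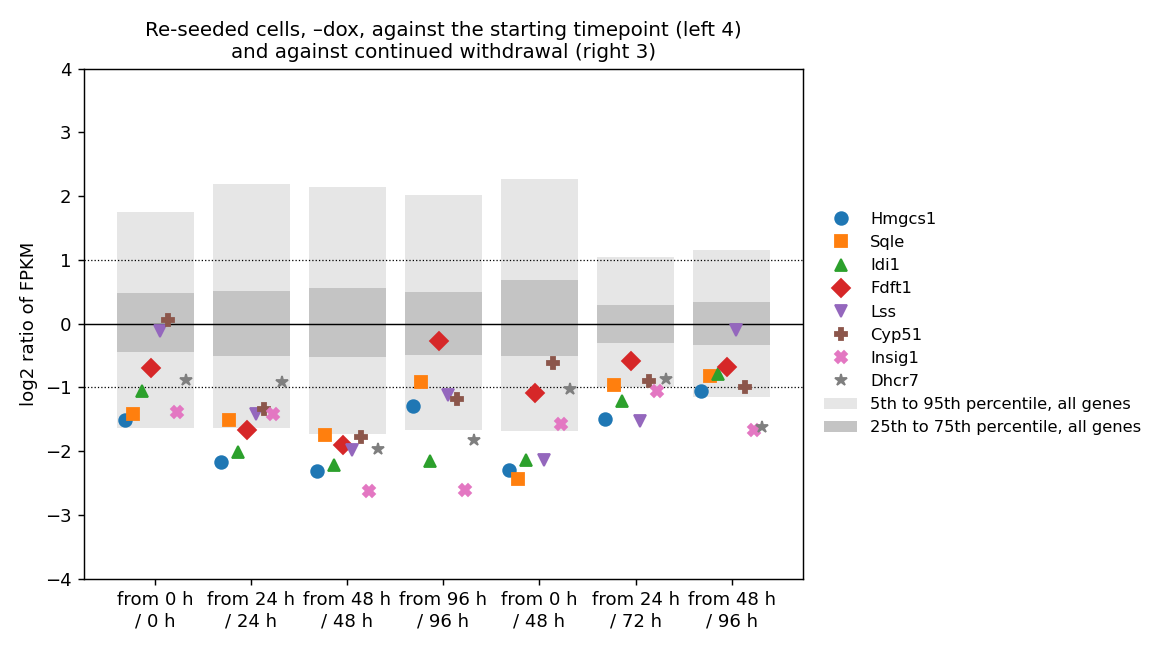
Log2 ratio of FPKM in –dox cells to that at the starting timepoint (left 4 columns) and to that of cells kept in withdrawal for the same total time (right 3 columns), with 1 symbol per gene and no error bars. Grey bars span the 5th to 95th and the 25th to 75th percentiles of all genes, dotted lines mark 2-fold, and every symbol except Cyp51 from 0 h lies below 0.

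Against cells kept in withdrawal for the same total time, the –dox cells were again lower. Of the 8 genes, 7 were called lower in –dox cells from 0 h than at 48 h of withdrawal (12.1%), 4 in those from 24 h than at 72 h (4.89%) and 3 in those from 48 h than at 96 h (6.51%). The medians were -1.85, -1.01 and -0.91 on the log2 scale. Sqle was 5.44-fold lower and Hmgcs1 4.89-fold lower in the first of these, and Lss and Hmgcs1 were 2.87- and 2.81-fold lower in the second. In the third, Insig1 (3.19-fold), Dhcr7 (3.07-fold) and Hmgcs1 (2.08-fold) were called, and Lss was 1.08-fold lower. Hmgcs1 was called in each of the 3 comparisons.

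For Hmgcs1, Sqle and Idi1 the 8 re-seeded conditions all lay below the 7 withdrawal timepoints, a pattern shown by 0.485% of the 14853 genes that reached 1 FPKM. Hmgcs1 ran from 31.3 to 63.7 FPKM after re-seeding and from 76.9 to 196 FPKM in withdrawal. Sqle ran from 20.4 to 37.8 FPKM and from 54.8 to 121 FPKM, and Idi1 from 4.80 to 20.2 FPKM and from 21.4 to 67.2 FPKM. In the other 5 genes the groups overlapped, with 7 of 8 re-seeded values below the lowest withdrawal value for Insig1 and Dhcr7, 6 for Cyp51 and 5 for Fdft1 and Lss. Without the 96 h timepoint, a setting chosen after seeing the data, 5 genes in place of 3 were separated. The share of all genes was not computed for that setting.

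Among the –dox cells, 4 of 8 genes were called lower when re-seeded from 96 h than from 0 h (Insig1, Idi1, Cyp51 and Dhcr7; 21.7% of all genes tested). Insig1 was 3.94-fold lower. Sqle went the other way, at 20.4 FPKM from 0 h and 31.1 FPKM from 96 h, and Hmgcs1 was 1.20-fold lower. Ranked over the 15 conditions, the –dox cells from 96 h held the lowest value for 5 of the genes. The share of all genes with their lowest value there was not computed.

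The +dox cells, with OSKM on, were set against –dox cells of the same start. None of 8 genes was called in either direction from 0 h (9.23% of all genes tested), from 24 h (6.27%) or from 48 h (13.0%), and 2 of 8 were called higher from 96 h (6.67%). From 0 h all 8 genes were higher with dox, without reaching 2-fold, from 1.28-fold for Cyp51 (42.4 against 33.2 FPKM) to 1.86-fold for Lss (11.4 against 6.13 FPKM). The median log2 ratio of the 8 genes from 0, 24, 48 and 96 h was 0.59, 0.27, -0.10 and 0.70, where that of all genes was 0.05, 0.02, -0.02 and -0.01.

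From 24 h the ratios lay between 1.09-fold lower for Sqle and 1.75-fold higher for Lss. From 48 h, Insig1 was 1.62-fold higher (19.2 against 11.9 FPKM) and Lss 1.52-fold lower (4.51 against 6.86 FPKM), with Idi1 at 12.4 FPKM in both. From 96 h, Insig1 was 2.39-fold higher (14.9 against 6.23 FPKM) and Idi1 2.08-fold higher (9.98 against 4.80 FPKM), and these were the 2 genes called. The count was 1 in place of 2 with a pseudocount of 1 FPKM, and also 1 with every condition scaled to the same summed FPKM. Lss was again lower with dox, at 2.35 against 3.41 FPKM. The fibroblast marker sum was 58.9 FPKM with dox and 204 FPKM without it in that pair, and its part in the ratios was not tested.

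**Figure D3:**
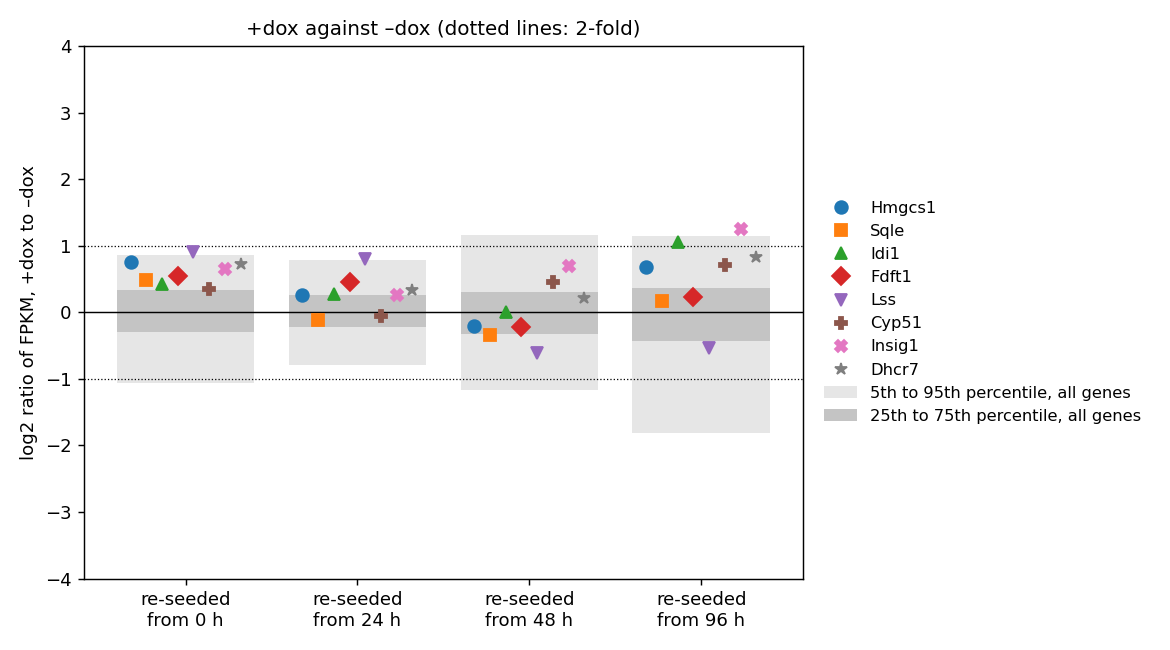
Log2 ratio of FPKM in +dox to –dox cells for the 4 starts of re-seeding, with 1 symbol per gene, no error bars, and grey bars for the 5th to 95th and 25th to 75th percentiles of all genes. All 8 symbols lie above 0 from 0 h, they fall on both sides of 0 from 48 h, and only Insig1 and Idi1 from 96 h pass the dotted 2-fold line.

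A list of 13 other enzymes of the pathway, 5 of the mevalonate branch and 8 of the sterol branch, was followed separately. In withdrawal 11 of 13 had their highest level at 24, 36 or 48 h, and their median log2 ratio at 24 h to 0 h was 0.48. Fdps, which makes farnesyl diphosphate, had 129, 281 and 132 FPKM at the 0, 48 and 96 h timepoints. The exceptions were Ebp, a sterol isomerase, which went from 33.8 FPKM before withdrawal to 5.81 FPKM after 60 h, and Tm7sf2, a sterol reductase that was highest in withdrawal at 0 h (33.6 FPKM). In –dox cells against their start, 3, 8, 9 and 4 of the 13 were called lower from 0, 24, 48 and 96 h (10.1%, 10.6%, 11.5% and 11.2% of all genes) and none higher (11.998%, 14.9%, 15.3% and 12.4%). Fdps and Lbr had all re-seeded values below all withdrawal values.

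For the 6 genes that sense sterol, the ratio of 24 h to 0 h had a median of -0.05 (log2), and that of 96 h to 24 h one of 0.15. None of them (Srebf2, Srebf1, Scap, Insig2, Mbtps1 and Mbtps2) was called at 24 h against 0 h or at 96 h against 24 h. In these comparisons 23.0% and 36.8% of all genes were called in either direction. Srebf2 stayed between 57.0 and 81.3 FPKM in withdrawal. After re-seeding without dox it was at 72.0 FPKM from 0 h, 43.4 from 24 h, 33.1 from 48 h and 28.9 from 96 h. Called lower than the start from 0, 24, 48 and 96 h were 0, 1, 1 and 1 of the 6 genes. The shares of all genes were 10.1%, 10.6%, 11.5% and 11.2%. The calls were Srebf1 from 24 h (15.3 against 32.1 FPKM) and Srebf2 from 48 and 96 h. With dox Srebf2 was at 91.9, 59.7, 37.0 and 64.4 FPKM. Against –dox cells, 1 of the 6 genes, Srebf2, was called higher from 96 h (6.67% of all genes). None was called in either direction from 0 h (9.23%), 24 h (6.27%) or 48 h (13.0%). The fibroblast marker sum in the 96 h pair was 58.9 FPKM with dox and 204 FPKM without it, and its part was not tested.

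Stard4, a carrier of cholesterol in the cytosol, had its highest withdrawal level, 28.7 FPKM, at 48 h, against 15.1 FPKM before withdrawal and 11.8 FPKM after 96 h. In –dox cells from 0, 24 and 48 h it was at 6.15, 6.36 and 5.91 FPKM, each called lower than its start, and from 96 h it was at 8.45 FPKM and was not called. In all, 2, 1, 1 and 0 of the 5 genes of uptake and handling were called lower in –dox cells from 0, 24, 48 and 96 h (10.1%, 10.6%, 11.5% and 11.2% of all genes), and 0, 1, 1 and 0 were called higher (11.998%, 14.9%, 15.3% and 12.4%). Npc2, which carries cholesterol in the lysosome, dropped from 124 FPKM before withdrawal to 37.4 FPKM after 24 h. Lipa, the lysosomal lipase, went from 1.67 FPKM after 24 h to 7.25 FPKM after 96 h, and Scarb1 had its highest withdrawal level, 32.0 FPKM, at 0 h. Soat1, which esterifies cholesterol for storage, went from 8.99 FPKM before withdrawal to 51.7 FPKM after 72 h, and was at 5.66 FPKM in –dox cells from 0 h against 38.4 FPKM in those from 24 h.

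Of 9 fatty acid synthesis genes, 2, 5, 8 and 3 were called lower in –dox cells from 0, 24, 48 and 96 h, against the same 10.1%, 10.6%, 11.5% and 11.2% of all genes. Fasn, the fatty acid synthase, was highest at 36 h (145 FPKM, against 76.6 at 0 h), but the desaturase genes Scd1 and Scd2 had their highest level at 0 h, at 81.2 and 222 FPKM. Of 5 efflux genes and LXR regulators, 3 (Abca1, Abcg1 and Mylip) of the 4 tested were called lower at 96 h than at 24 h (16.3% of all genes), and Mylip was also called lower at 24 h than at 0 h (14.3%). In –dox cells none was called from 0 h, Abca1 and Abcg1 were called lower from 24 h (10.6%), Abcg1 lower from 48 h (11.5%), and 4 of 5 higher from 96 h (12.4%). Abca1, the cholesterol exporter, was at 0.114 FPKM at 96 h and 1.92 FPKM in those –dox cells. Of 4 genes of the non-sterol branches, Dhdds was called lower at 24 h than at 0 h (14.3%) and higher at 96 h than at 24 h (20.5%), Pdss1 was called lower at 96 h than at 24 h (16.3%), and none was called in –dox cells against their start, where 22.1% to 26.8% of all genes were called in either direction.

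**Figure D4:**
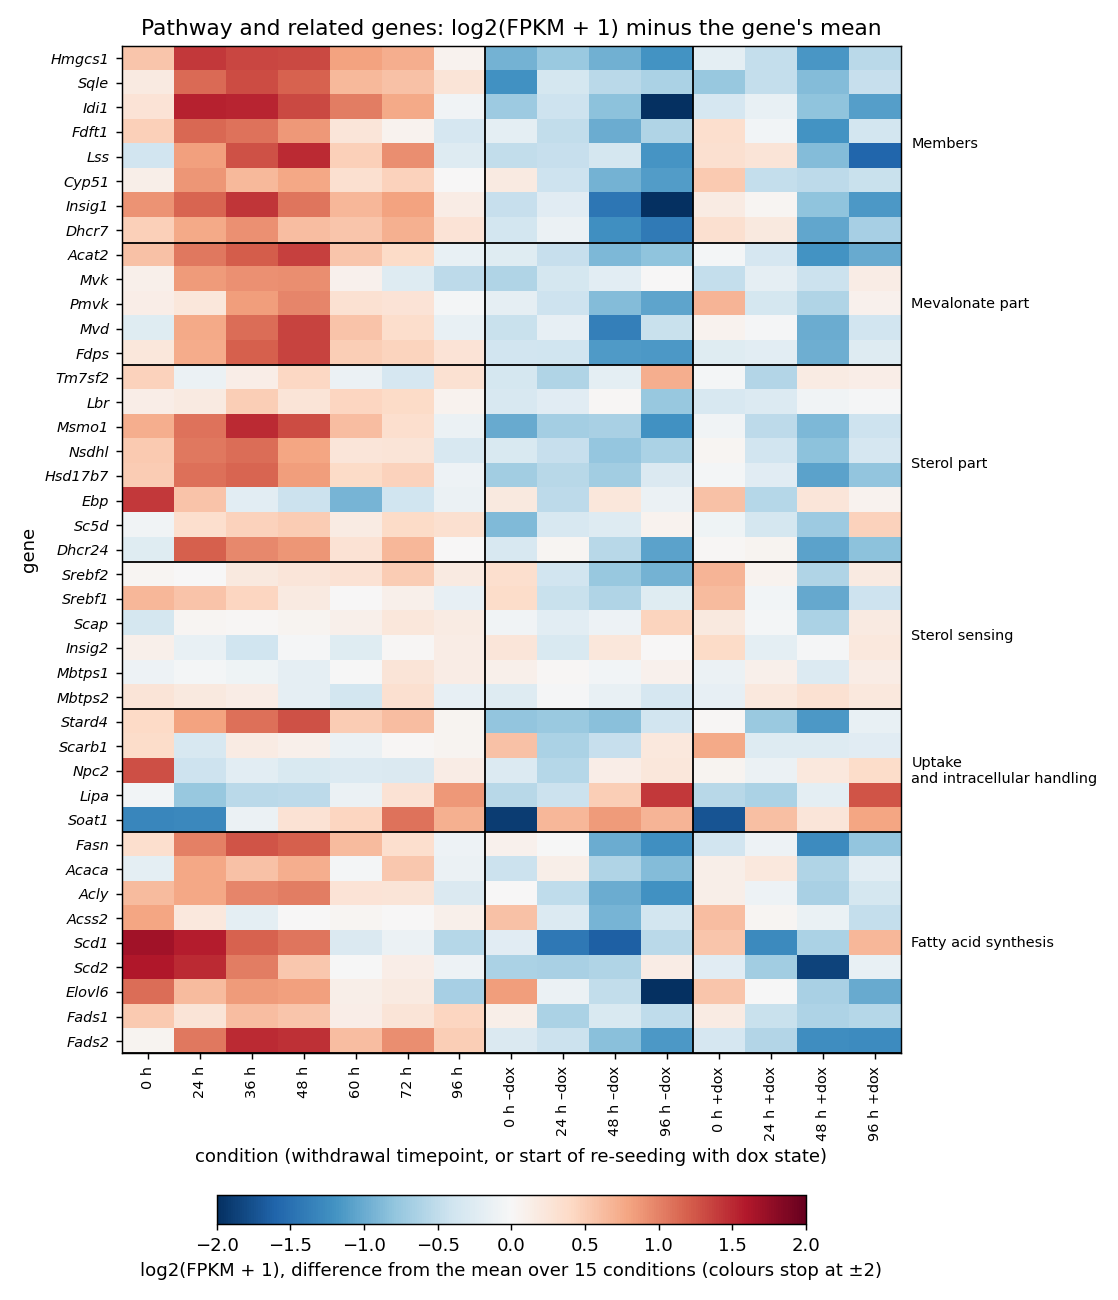
Log2(FPKM + 1) minus the gene's mean over the 15 conditions, with genes in rows by list (the 8 genes at the top) and conditions in columns, red above and blue below the mean. The 8 genes and most other enzymes are red from 24 to 48 h of withdrawal, where the sterol sensing genes are paler than the 8 genes. After re-seeding the 8 genes and most other enzymes are mostly blue.

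The profiles of the 8 genes over the 15 conditions were compared, as a description that shares all libraries between points. The r of pairs of other genes was not computed. Pearson's r of log2(FPKM + 1) over the 28 pairs of genes ran from 0.689 (Sqle and Cyp51) to 0.968 (Insig1 and Dhcr7), with a median of 0.862. Among 9067 genes that reached 10 FPKM, those outside the 8 most like their mean profile were Cetn2 (r = 0.968), Wbscr22 (0.964), Acat2 (0.962), Noa1 (0.961), Fdps (0.957), Sec23b (0.955), Pcna (0.953), Armc1 (0.952), Fads2 (0.9499) and Fasn (0.948). Of these 10 genes, Acat2 and Fdps belong to the pathway lists, and Fads2 and Fasn to the fatty acid list. With the 7 withdrawal timepoints alone, 1 of the 10 was shared. By r with that mean profile, in which each has a part, the 8 genes ranked from 1 (Idi1) to 103 (Sqle). Cyp51, Fdft1 and Lss ranked 43, 47 and 72, behind many genes outside the 8.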

How the data were processed

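RNA-seq was done on polyadenylated RNA of 30 samples, 2 replicates for each of 15 conditions. According to the methods and processing notes, the authors mapped reads to mm10 with TopHat2 2.0.14 and quantified Gencode M4 transcripts with Cuffquant and Cuffdiff of Cufflinks 2.2.1. The deposited FPKM values combine both replicates of a condition, so no spread between replicates, test, SD or interval could be computed, and a combined value hides any disagreement between its replicates. The library normalization is not given in the sources used here, and read depth was not given (a rough estimate came from the spacing of low values); the summed FPKM per condition was 603244 to 832454. The table also holds 5 columns of the authors' calls (response to dox at 4 starts and the cluster of dynamic genes), which were not used.

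FPKM values were used as deposited, after leaving out 4 rows with a shared name. Ratios were plain, and calls needed 2-fold and 1 FPKM in the higher value. Likeness was Pearson's r with the mean z-scored log2(FPKM + 1) profile. The named genes were all 8 members, the genes of the fixed pathway lists except 3 that are not reported here, and the 10 genes most like the members. Members and lists were chosen with earlier results of these data known. Alternatives were other fold and FPKM limits, a pseudocount of 1 FPKM, median-ratio size factors, equal sums and leaving out Insig1; settings that leave out a timepoint, and both scalings of the counts of separated genes and of genes highest at 24 to 48 h, were chosen after seeing the data. Promoters and their coordinates came from RefSeq (GRCm38.p6), and gene positions from Gencode. Scripts ran in Python 3.11.15 with pandas 2.3.3 and numpy 2.4.6 and were tested on simulated data.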

Additional observations from a re-analysis of the deposited data

Results flagged for a closer look

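Lss was higher with dox in cells re-seeded from 0 h, with a log2 ratio of +dox to –dox of 0.90, and lower with dox in cells re-seeded from 48 h, with a log2 ratio of -0.61. It was picked out because the same contrast ran in opposite directions at these starts, each by more than 1.5-fold. The difference was not tested, since each value combines both replicates of its condition.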

How the results depend on the processing

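No paired analysis was possible because the table holds 1 combined value per condition, with no replicate numbers, and for the same reason no replicate could be left out. Read depth was not given. Of 238 alternative values, 182 stayed within 1.5-fold for a count or 0.1 (log2) for a median and 56 moved further. A reversal was looked for only in medians of at least 2-fold, and 0 of these changed sign. Some smaller medians did, such as that of 36 h to 24 h, from 0.07 to -0.055 with equal sums. Median-ratio size factors, no FPKM minimum, a minimum of 1 FPKM in both conditions and leaving out the 0 h timepoint moved none.

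A limit of 1.5-fold in place of 2-fold gave 6 genes higher at 24 h than at 0 h, 5 at 36 h and 5 at 48 h, 2 lower at 60 h than at 48 h, 4 lower at 96 h than at 72 h, and 2 called at 96 h against 0 h. It gave 7 lower in –dox cells from 24 h than at 72 h and 7 in those from 48 h than at 96 h. With dox it called 4 genes from 0 h, 1 from 24 h, 2 from 48 h and 5 higher from 96 h. For this limit and the 3-fold limit below, the share of all genes was not computed. Whether these counts stand out from other genes therefore cannot be said. A limit of 3-fold gave 0 higher at 24 h, 1 at 36 h and 1 at 48 h against 0 h, 0 lower at 60 h than at 48 h, 0 at 96 h than at 72 h and 1 at 96 h than at 24 h. It gave 0, 3 and 3 lower in –dox cells from 0, 24 and 96 h than at their start, 4 from 0 h than at 48 h, 0 from 24 h than at 72 h, 1 from 96 h than from 0 h, and 0 higher with dox from 96 h.

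Scaling each condition to the same summed FPKM shifted all ratios by -0.26 to 0.38 (log2), and the medians moved with that shift. They became 0.95 (24 h to 0 h), -0.055 (36 h to 24 h), -0.33 (60 h to 48 h), 0.23 (72 h to 60 h), -0.68 (96 h to 72 h), 0.43 (60 h to 0 h), 0.68 (72 h to 0 h), -0.021 (96 h to 0 h) and -0.97 (96 h to 24 h). For –dox cells they became -0.74 and -1.31 from 0 and 24 h against the start, and -1.65, -1.12 and -1.17 against continued withdrawal. For +dox against –dox they became 0.36, 0.16 and 0.52 from 0, 24 and 96 h. The same scaling gave 0 genes lower at 60 h than at 48 h, 6 lower in –dox cells from 48 h than at 96 h, 1 higher with dox from 96 h and 5 with all re-seeded values below all withdrawal values. That last count was also 5 without the 96 h timepoint. For that count and for the count of genes highest at 24, 36 or 48 h (8, and 7 with equal sums), both scalings and the left-out timepoints were chosen after seeing the data.

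A pseudocount of 1 FPKM gave medians of -1.85 (–dox from 48 h to its start) and -0.87 (–dox from 96 h to –dox from 0 h) and 1 gene higher with dox from 96 h. Without Insig1 the medians were -0.062 (72 h to 60 h), -0.47 (96 h to 72 h), -2.13 (–dox from 0 h to 48 h), -0.21 (+dox to –dox from 48 h) and -0.85 (–dox from 96 h to –dox from 0 h). Over the 7 withdrawal timepoints alone, 1 of the 10 genes most like the 8 was shared. Beyond these constructions the cause was not tested.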
